A study of Mus musculus with 6 samples.

Results

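The 10 genes described here encode the enzymes of the urea cycle and of periportal amino acid breakdown: Cps1, Otc, Ass1, Asl, Arg1, Nags, Gls2, Hal, Sds and Tat. They were chosen by name, by matching the Ensembl gene identifiers of the files to mouse symbols, and are 10 of the 48353 genes in the files. They were measured in hepatocytes of mice in which Bim (symbol Bcl2l11, which encodes a protein that triggers apoptosis) was deleted with Alb-Cre, and in hepatocytes of wild-type mice, with 3 polyadenylated RNA libraries in each group. All mice were C57BL/6, and the cells were taken out by collagenase perfusion of the liver. Alb-Cre drives the recombinase from the albumin promoter, so the deletion is meant for hepatocytes. Whether other liver cells kept the gene was not tested. The labels do not say whether the wild-type mice carried the floxed allele or Alb-Cre. The protocol speaks of male mice on chow, or on a high-fat diet begun at 8 to 10 weeks of age for 14 to 20 weeks, and the diet and age of each sample are not given in the labels. By its title the study concerns BIM in obesity of the liver, and the comparison here is knock-out against wild-type. Whether each sample is a separate animal is not stated, and p-values therefore reflect sample-to-sample spread that may be technical only.

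The urea cycle turns ammonia, which amino acid breakdown sets free, into urea for excretion. Carbamoyl phosphate synthetase (Cps1) takes up ammonia in the mitochondrion and needs N-acetylglutamate, made by Nags, as its activator. Otc joins the product to ornithine, and Ass1, Asl and Arg1 complete the cycle in the cytosol. In the liver lobule these enzymes are highest near the portal vein, together with glutaminase (Gls2), histidine ammonia-lyase (Hal), serine dehydratase (Sds) and tyrosine aminotransferase (Tat), while the glutamine synthetase gene Glul is confined to cells at the central vein. Glucagon and glucocorticoids are known to induce many of them.

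The libraries held 25335211 to 31130519 estimated reads, and 10486 to 11255 genes per library had a value above 0. Among loci with whole read numbers (within 0.001), 92.3% to 93.0% per library held an even number, so a read may have been entered 2 times, and the printed read numbers may exceed the reads sequenced. The targeted gene Bcl2l11 was listed at 0 in the 3 knock-out libraries and in wild-type replicate 1, and had 680 and 478 reads in wild-type replicates 2 and 3. Bcl2l11 has 8 annotated transcripts, so a value of 0 checks neither the deletion in the knock-out libraries nor the label of wild-type replicate 1. The hepatocyte label was borne out by its markers: 17 of 18 were above 0 in all 6 libraries, and Haptoglobin (Hp) was listed at 0 in wild-type replicate 1. Wild-type replicate 1 stood apart, with macrophage markers summing to 4399 RPKM (14 genes), against 78.7 to 140.0 RPKM in the other 5 libraries. These sums partly follow zeros, as 2 of the 14 were at 0 there and 7 or 8 in each other library. Over the 6 macrophage markers above 0 in all libraries, its mean log2(RPKM + 1) level was 7.99, against 3.11 to 4.28. The mean hepatocyte marker level of wild-type replicate 1 was the lowest, 9.28 on the log2(RPKM + 1) scale against 9.59 to 10.39. RPKM is a read number scaled to transcript length and to library size. Among loci whose median exceeded 100 reads, exact zeros made up 18.0% of values where 2 or more transcripts are annotated and 0.016% where there is 1. A 0 at a locus of several transcripts may therefore be a failed estimate, and such genes are given library by library, with no mean; a fitted difference printed for one follows its zeros and does not measure a change.

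The members fell into 3 sets by how they were read. Cps1, Ass1, Arg1 and Nags (4 of 10) were above 0 in all 6 libraries. Otc, Asl, Gls2 and Sds (4) were read in some libraries and listed at 0 in others, and Hal and Tat (2) were listed at 0 in all 6. Only Cps1 and Arg1 (2) have a single annotated transcript, so for them the problem of exact zeros hardly arises.

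**Figure D1:**
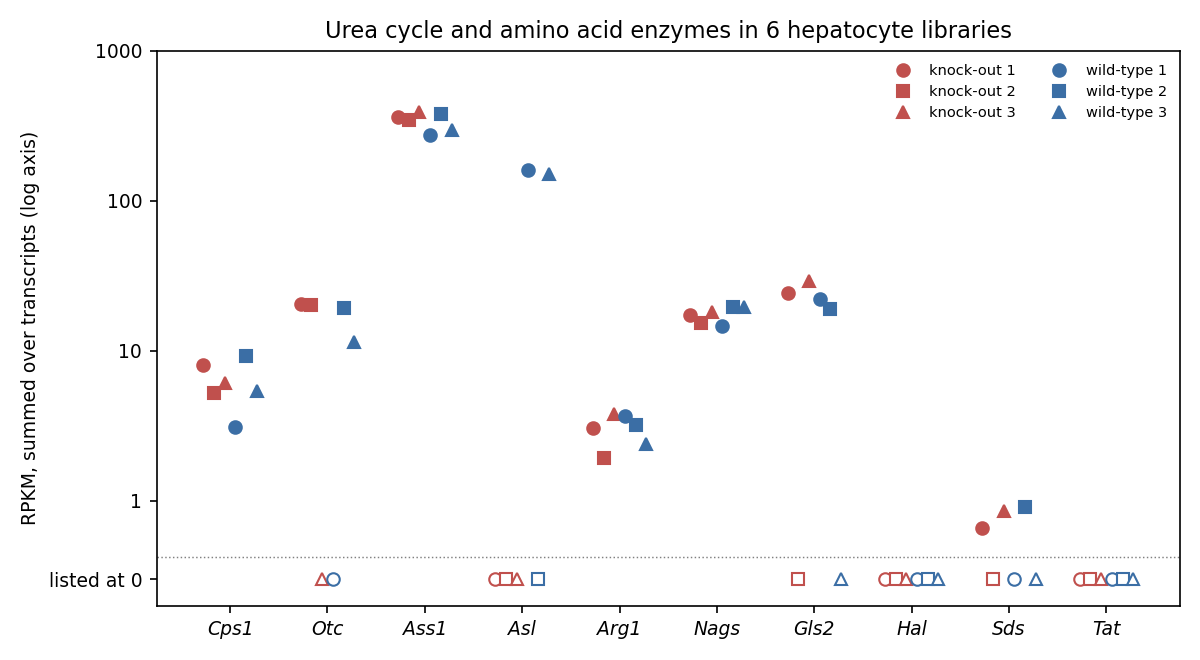
RPKM of each member (log axis) in each library, with knock-out in red, wild-type in blue and the replicate number given by the marker; open markers below the dotted line are values listed at 0. Ass1 lies between 273 and 390 RPKM in all 6 libraries, Nags, Cps1 and Arg1 lie below 20 RPKM, and Hal and Tat are listed at 0 throughout.

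Nags (chromosome 11, 102145513 to 102149477, plus strand, GRCm38) gates the cycle through the activator it makes. It measured 17.3, 15.3 and 18.0 RPKM in knock-out replicates 1 to 3 and 14.6, 19.5 and 19.6 RPKM in wild-type replicates 1 to 3. The highest library was only 1.34 times the lowest, and the groups overlapped. Its reads (614 to 866 per library) were all assigned to the protein-coding transcript of 7 exons, 1 of 3 annotated. Gm11586, which overlaps Nags on the other strand, had 20 to 32 reads, and the labels do not say whether the counting used strand.

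Cps1 (chromosome 1, 67123026 to 67231259, plus strand), the first enzyme of the cycle, has 1 annotated transcript of 38 exons and 5555 bases. It had 902, 574 and 650 estimated reads in the knock-outs and 360, 1116 and 620 in the wild-types. Scaled to length these were 8.03, 5.21 and 6.08 RPKM in the knock-outs and 3.09, 9.17 and 5.44 RPKM in the wild-types. Both the lowest and the highest library were wild-type (replicates 1 and 2), 2.97-fold apart, and the knock-out values lay between them. Cps1 stood above 33.8% to 47.4% of the genes read in a library, in the lower part of the range.

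Otc (chromosome X, 10252305 to 10321024, plus strand), the second mitochondrial enzyme, had 1028, 1194 and 0 reads in the knock-outs and 0, 1268 and 706 in the wild-types. Where read it lay at 20.5, 20.1, 19.3 and 11.5 RPKM, close to Nags. The libraries at 0, knock-out replicate 3 and wild-type replicate 1, are 1 of each group. Otc has 2 protein-coding transcripts, and 740 of the reads of knock-out replicate 1 went to the shorter one, while in the other 3 libraries all went to the longer one.

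Ass1 (chromosome 2, 31470207 to 31520672, plus strand), which joins citrulline and aspartate, was the highest member in all 6 libraries. It measured 363, 345 and 390 RPKM in the knock-outs and 273, 379 and 297 in the wild-types. It stood above 95.6% to 96.8% of the genes read. In knock-out replicate 3, 861 reads were assigned to a retained-intron transcript of 662 bases, which added 67.6 RPKM. On the protein-coding transcript alone that library had 323 RPKM, so the highest Ass1 value of the knock-out group rests on how its reads were divided.

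Asl (chromosome 5, 130011258 to 130029247, minus strand), which splits argininosuccinate, had 0, 0 and 0 reads in the knock-outs and 2174, 0 and 1996 in the wild-types. All of these went to 1 of the 8 annotated transcripts, a processed transcript of 644 bases and 7 exons with no annotated coding sequence. None went to the 6 protein-coding ones. The 161 and 151 RPKM of Asl in wild-type replicates 1 and 3 are scaled to that short length and are not comparable with the other members. Wild-type replicate 2 was at 0 like the knock-out libraries.

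Arg1 (chromosome 10, 24915208 to 24927470, minus strand), which releases urea from arginine, has 1 annotated transcript of 8 exons and 1476 bases. It had 92, 56 and 108 reads in the knock-outs and 114, 104 and 72 in the wild-types, the lowest read number of the 4 members read everywhere. These were 3.08, 1.91 and 3.80 RPKM in the knock-outs and 3.69, 3.22 and 2.38 RPKM in the wild-types. The groups overlapped. Arg2, the mitochondrial arginase of other tissues, had 26, 26 and 44 reads in the knock-outs and 280, 30 and 28 in the wild-types. Its high value was in wild-type replicate 1, the library with the highest macrophage markers, where Arg2 RPKM exceeded that of Arg1 (ratio of Arg1 to Arg2 0.394, against 2.08 to 3.42 in the other 5 libraries). The part of macrophages in this was not tested.

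Gls2 (chromosome 10, 128194457 to 128210004, plus strand), which frees ammonia from glutamine, had 756, 0 and 864 reads in the knock-outs and 714, 908 and 0 in the wild-types. The reads went to a retained-intron transcript in 3 libraries and to a nonsense-mediated decay transcript in wild-type replicate 2, and none to the 3 protein-coding ones of its 11 transcripts. The libraries at 0, knock-out replicate 2 and wild-type replicate 3, differ from those at 0 for Otc. Spryd4, on the other strand, overlaps Gls2 and had 422 to 650 reads. Sds (chromosome 5, 120476526 to 120483932, plus strand), which deaminates serine, had 16, 0 and 20 reads in the knock-outs and 0, 24 and 0 in the wild-types, none above 0.908 RPKM. Plbd2, which overlaps Sds on the other strand, had 3484 to 4108 reads, so the few reads of Sds are uncertain without strand.

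**Figure D2:**
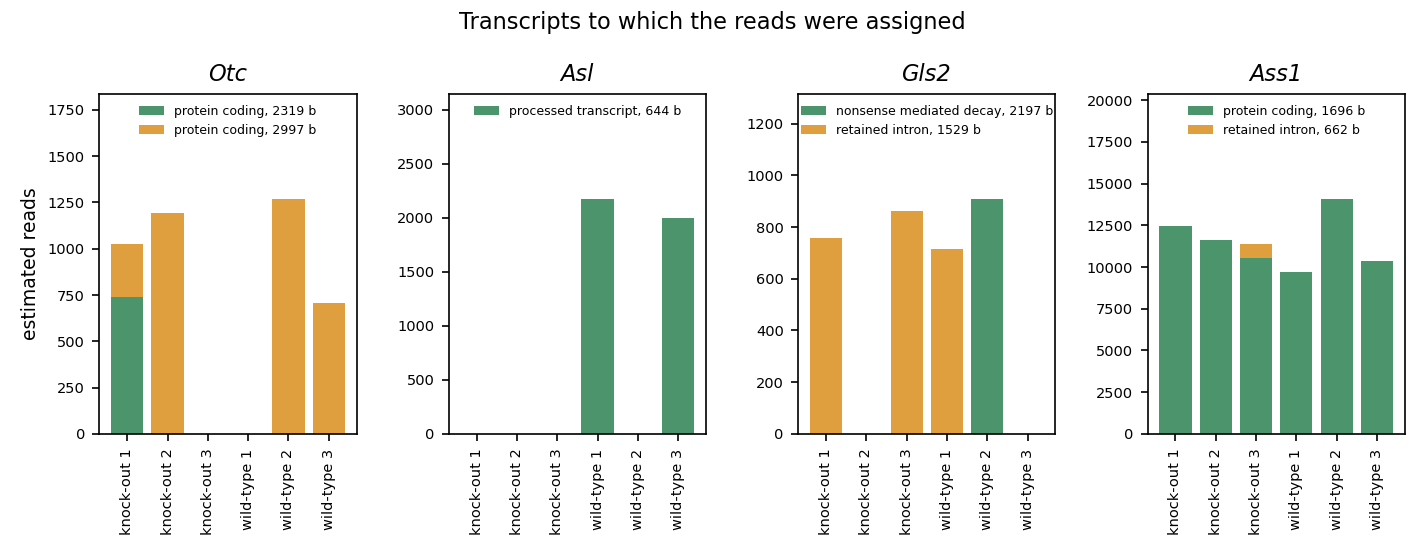
Estimated reads of Otc, Asl, Gls2 and Ass1 in each library, stacked by the transcript to which they were assigned, with its GENCODE M21 type and length in bases (b). Asl reads appear in wild-type replicates 1 and 3 only, on a transcript of 644 bases, and Gls2 reads move between transcripts of 1529 and 2197 bases.

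Hal (chromosome 10, 93488768 to 93519304, 4 transcripts) and Tat (chromosome 8, 109990437 to 109999803, 2 transcripts) had 0 reads in each of the 6 libraries. Both loci have several transcripts, so little RNA and reads that were not assigned cannot be told apart. The genes beside them in the same pathways that have 1 transcript were read. Amdhd1, of the histidine pathway after Hal, had 114, 116 and 112 reads in the knock-outs and 44, 118 and 94 in the wild-types, at most 2.42 RPKM. Gstz1, of the tyrosine pathway after Tat, had 858, 722 and 826 reads in the knock-outs and 674, 816 and 706 in the wild-types (19.3 to 25.8 RPKM). G6pc, another gene of periportal hepatocytes with 1 transcript and named here for its role in glucose release, had 0 to 8 reads.

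RefSeq promoter sequences (GRCm38.p6) were matched for 5 of the 10 members, and 4 are shown. These are Ass1, the highest member, and Nags, with the smallest range of the members read in all libraries. Hal and Tat, listed at 0 in all libraries, are also shown. Their zeros may be failed estimates, so the 4 stretches do not contrast high with silent genes. Each stretch lies on the plus strand upstream of the first annotated start, 5′ to 3′. Capitals mark exact matches on either strand to the motifs searched. The GC box was searched as GGGCGG, the CCAAT box by its own letters, the usual box before a start site as TATAAA, called TATA box here, and the core of the cAMP response element as TGACG.
Ass1, chr2:31470020-31470206: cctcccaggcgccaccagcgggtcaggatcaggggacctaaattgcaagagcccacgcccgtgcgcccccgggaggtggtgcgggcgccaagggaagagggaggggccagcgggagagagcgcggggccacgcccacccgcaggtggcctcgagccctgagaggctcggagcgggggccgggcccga
Nags, chr11:102145263-102145512: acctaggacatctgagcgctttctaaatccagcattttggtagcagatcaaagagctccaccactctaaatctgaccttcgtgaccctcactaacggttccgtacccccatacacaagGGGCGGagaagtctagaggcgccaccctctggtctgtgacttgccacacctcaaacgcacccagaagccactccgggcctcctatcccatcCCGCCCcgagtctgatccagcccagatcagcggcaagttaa
Hal, chr10:93488518-93488767: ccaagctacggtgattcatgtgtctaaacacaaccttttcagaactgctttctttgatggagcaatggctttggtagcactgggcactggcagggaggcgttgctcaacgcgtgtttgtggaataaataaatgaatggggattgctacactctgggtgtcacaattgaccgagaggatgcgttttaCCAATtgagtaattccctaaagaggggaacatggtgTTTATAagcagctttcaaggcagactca
Tat, chr8:109990186-109990435: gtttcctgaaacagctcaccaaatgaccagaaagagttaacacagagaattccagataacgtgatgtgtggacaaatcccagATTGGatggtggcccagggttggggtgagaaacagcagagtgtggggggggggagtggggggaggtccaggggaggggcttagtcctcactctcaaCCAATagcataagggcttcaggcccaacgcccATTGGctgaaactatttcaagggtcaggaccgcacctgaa
The Ass1 stretch (187 bases, shortened so that it holds no transcribed base) was 75.4% G and C and held none of the 4 motifs. Nags held 2 GC boxes, 1 on each strand, in 250 bases with 55.6% G and C. Hal (45.6% G and C) held a CCAAT box and, on the minus strand, a TATA box, and Tat (53.6%) held 3 CCAAT boxes, of which 2 were on the minus strand. Among all 32851 promoter windows of 250 bases, 32.7% held a GC box, 33.8% a CCAAT box, 12.4% a TATA box and 17.8% TGACG, and the median was 52.4% G and C. In windows of 187 bases the shares were 22.2%, 26.2%, 8.6% and 11.4%. TGACG was in none of the 4 stretches. These matches describe letters, not binding.

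Per length, the order of the members read in all libraries was Ass1, Nags, Cps1 and Arg1. Ass1 exceeded Nags 15.2- to 22.6-fold within a library and Cps1 41.3- to 88.3-fold. Nags exceeded Cps1 in 6 of 6 libraries, 2.13- to 4.72-fold. Cps1 exceeded Arg1 in 5 of 6, and in wild-type replicate 1 the order turned (ratio 0.839), so these neighbours overlapped. The ratio of Ass1 to Cps1 was 58.5 ± 11.6 in the knock-outs and 61.4 ± 24.2 in the wild-types (SD, n = 3 each). The ratio in knock-out replicate 3 (64.2) includes the 67.6 RPKM of the retained-intron transcript of Ass1.

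Between the genotypes none of the members passed the test. Of the 10, 7 passed the filter (a mean of at least 1 RPKM), and 0 of these 7 were called by limma at a Benjamini-Hochberg adjusted p below 0.05, where 0.789% of all 11021 genes tested were called. At an unadjusted p below 0.05 the number was also 0 of 7. Voom called 0 members and 83 genes over the whole table. With so few genes called, 0 of 7 does not set the members apart from other genes. In the fit of genes above 0 in all libraries, 0 of the 4 members there had an unadjusted p below 0.05, against 2.35% of its genes. Hal, Sds and Tat were not tested. Of the 4 members above 0 in all libraries, 0 had groups that did not overlap, against 5.94% of the 5538 genes above 0 tested.

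Ass1 measured 366 ± 22.8 RPKM in the knock-outs and 316 ± 55.3 in the wild-types (SD, n = 3 each). The knock-out mean includes the 67.6 RPKM of the retained-intron transcript in knock-out replicate 3. The difference on the log2(RPKM + 1) scale was 0.22 (SE 0.15), with a 95% interval from -0.17 to 0.61 and a limma adjusted p of 0.941, and without wild-type replicate 1 it was 0.12. Cps1 measured 6.44 ± 1.44 and 5.90 ± 3.07 RPKM (SD, n = 3 each), with a difference of 0.19 (SE 0.40, 95% interval -0.84 to 1.22, limma adjusted p = 0.998). Without wild-type replicate 1 the sign of the Cps1 difference turned (-0.14). Nags measured 16.9 ± 1.42 and 17.9 ± 2.86 RPKM (SD, n = 3 each), a difference of -0.07 (SE 0.18, 95% interval -0.53 to 0.38), and -0.21 without wild-type replicate 1. Arg1 measured 2.93 ± 0.952 and 3.09 ± 0.664 RPKM (SD, n = 3 each), a difference of -0.07 (SE 0.29, 95% interval -0.83 to 0.68), and without wild-type replicate 1 it was 0.03. Of these 4 intervals that of Cps1 was the widest and that of Ass1 the narrowest. In the fit of genes above 0 in all libraries Nags had the narrowest (-0.435 to 0.29, against -0.191 to 0.634 for Ass1).

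**Figure D3:**
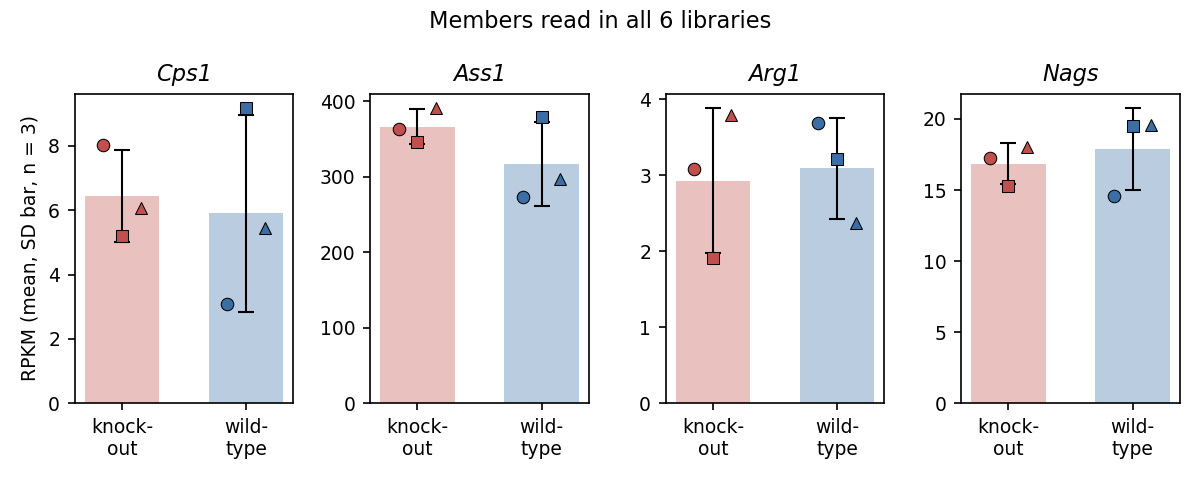
RPKM of the 4 members read in all libraries, with points for libraries (circle, square and triangle for replicates 1, 2 and 3), bars for the group mean and black lines for the SD (n = 3). In each panel the knock-out and wild-type points overlap, and wild-type replicate 1 is the lowest point for Cps1, Ass1 and Nags and not for Arg1.

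The fitted values of Otc, Asl and Gls2 follow their zeros. Asl, at 0 in all 3 knock-out libraries, had a fitted difference of -4.86 (SE 2.19, limma adjusted p = 0.941), whose size depends on the pseudocount. Without wild-type replicate 2, the wild-type library at 0, Asl was called (-7.29, limma adjusted p = 0.00336). In that setting 202 genes (1.83%) were called, 1.13% of all tested being lower in knock-out like Asl, and 197 of the 202 had a library at 0 among the 5 used. The difference of Otc was 0.28 (SE 1.80) and that of Gls2 0.25 (SE 1.96), and each changed sign with the library left out.

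The mean log2 level over the 4 members read in all libraries was 4.48, 4.16 and 4.49 in knock-out replicates 1 to 3 and 4.08, 4.59 and 4.26 in wild-type replicates 1 to 3. Wild-type replicates 1 and 2 were the lowest and the highest, so the spread within the wild-types covered the knock-out values. Across the 6 libraries Cps1 and Ass1 varied together (Pearson r = 0.81), as did Cps1 and Nags (r = 0.71), while Arg1 followed none of them (r = -0.02 with Cps1, 0.11 with Ass1 and 0.04 with Nags). These are descriptions over 6 libraries, of which wild-type replicate 1 also differed in its macrophage and hepatocyte markers.

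The genes whose pattern was most like that of Cps1, among 3477 genes averaging 10 RPKM or more and above 0 in all libraries, were Slc9a3r1, Masp2, Ahsg, Ap2a2 and Gm20496 (r = 0.988 to 0.972 over 6 libraries). Slc9a3r1 is a scaffold of membrane proteins, Masp2 a protease of the lectin pathway of complement, Ahsg the plasma protein fetuin-A and Ap2a2 a subunit of an endocytic adaptor. Ahsg measured 1173, 726 and 594 RPKM in the knock-outs and 206, 1567 and 545 in the wild-types, lowest and highest in the same libraries as Cps1. Of the 3477 genes 78 (2.24%) had an r above 0.9 with Cps1.

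Wild-type replicate 1 was the lowest library for many genes of amino acid metabolism. Of 23 tested genes of these lists with 1 annotated transcript and reads in all libraries, Cps1 and Arg1 among them, 14 (60.9%) were lowest there, against 677 of 2973 (22.8%) of all such genes. Over all those genes wild-type replicate 2 was the lowest library most often, with 992 (33.4%). Cdo1, which oxidises cysteine, had 1164 reads in wild-type replicate 1 and 3338 to 8556 elsewhere, and Gpt, alanine aminotransferase, 192 against 244 to 366. Arg1 was not low in wild-type replicate 1, and 5 of the 23 genes were highest there. These were Arg2, Dld, Shmt2, Gldc of the glycine cleavage system and the amino acid transporter Slc38a2. The mean hepatocyte marker level was lowest and the macrophage markers highest in the same library, as given above. Alb itself was lowest in wild-type replicate 3 (15024 RPKM, against 16508 in wild-type replicate 1). The part of these markers in the low values of amino acid genes was not tested. In bulk RNA, fewer hepatocytes and less of these RNAs per hepatocyte cannot be told apart.

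**Figure D4:**
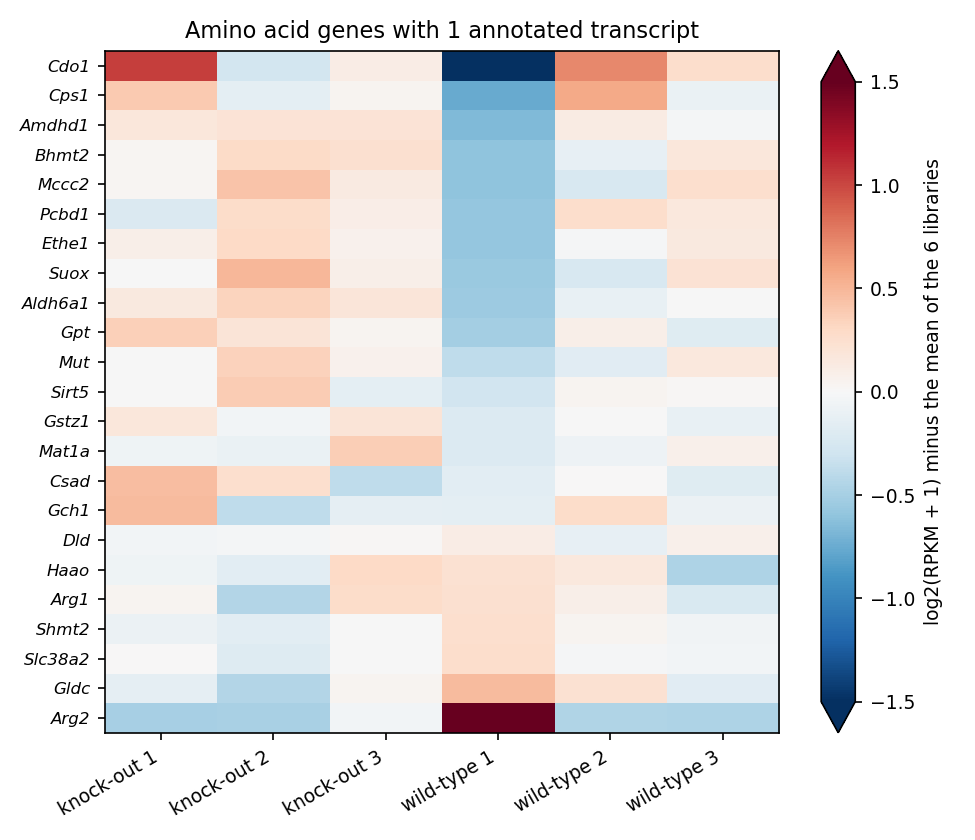
Difference of log2(RPKM + 1) from the mean of the 6 libraries for 23 genes of amino acid metabolism with 1 annotated transcript (rows) in each library (columns), with blue for lower and red for higher values and the colour scale ending at 1.5 either way. The column of wild-type replicate 1 is blue for Cdo1, Cps1 and Amdhd1, pale red for Arg1 and dark red for Arg2.

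The genes around the members were taken from 12 lists of nitrogen supply, amino acid breakdown, zonation and regulators, 136 genes beside the members. Of these 105 were tested and 3 were called (2.86%, against 0.789% of all genes), 3 higher and 0 lower in knock-out, while the 87 called over the whole table were 41 higher and 46 lower. They were Dmgdh, of choline and glycine metabolism, and Hibadh and Pcca, of branched-chain amino acid breakdown. Dmgdh had 1876, 2322 and 1644 reads in knock-out (limma adjusted p = 0.000631), Pcca 610, 708 and 542 (limma adjusted p = 0.0343) and Hibadh 3007, 3754 and 3296 (limma adjusted p = 0.000179). Each was listed at 0 in the 3 wild-type libraries and lies at a locus with 2 or more transcripts. All of those 87 genes had at least 1 library at 0, and with the genes above 0 in all libraries limma called 0 of 5538 (0.0%) and 130 had an unadjusted p below 0.05.

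Of the 136 genes, 45 were above 0 in all libraries, 67 were read in some and 24 were at 0 in all. Of the 45, 35 had a positive difference (77.8%, median 0.29 on the log2 scale), against 50.2% and a median of 0.00 over the 5538 genes. With wild-type replicate 1 left out, a setting chosen after seeing the data, 36 of the 45 were positive with a median of 0.17, against 56.3% and 0.02 of all genes. Genes of these lists vary together, so the count is a description. None of the 45 was called by limma (0, smallest adjusted p = 0.996 in the fit of genes above 0), and 2 had an unadjusted p below 0.05. The groups of 4 did not overlap (among them Amdhd1, Psph and Aldh6a1, named after their values were seen), where 5.94% of all genes above 0 did not.

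In the list of nitrogen supply and transport, 7 of 20 genes were above 0 in all libraries and 0 of 18 tested were called. Gpt measured 9.20 ± 1.10 RPKM in the knock-outs and 6.81 ± 1.58 in the wild-types, and Glud1, glutamate dehydrogenase, 280 ± 52.9 and 216 ± 76.6 RPKM (SD, n = 3 each). Slc25a15 and Slc25a13, mitochondrial carriers that serve the cycle, were read in 2 and 1 libraries. Of 11 methionine and cysteine genes 7 were above 0, all 7 with a positive difference (median 0.37, and 0.17 with 6 positive without wild-type replicate 1). Bhmt2 measured 3.75 ± 0.447 and 2.74 ± 0.967 RPKM, and Suox, sulfite oxidase, 6.02 ± 1.35 and 4.45 ± 1.48 (SD, n = 3 each). Of the 4 histidine genes 2 were tested and 0 called. In serine, glycine and threonine metabolism 2 of 7 were positive (median -0.05). Psph, of serine synthesis, measured 28.1 ± 4.49 RPKM in the knock-outs and 39.2 ± 5.51 in the wild-types (SD, n = 3 each, limma adjusted p = 0.941).

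Among branched-chain genes 5 of 21 were above 0, all 5 positive (median 0.34, and 0.16 without wild-type replicate 1), with Aldh6a1 at 10.3 ± 0.789 and 7.48 ± 1.59 RPKM (SD, n = 3 each). Of the phenylalanine and tyrosine genes 3 of 9 were above 0, with 2 positive (median 0.11), and 1 positive (median -0.11) without wild-type replicate 1. Gstz1 measured 24.4 ± 2.16 and 20.8 ± 1.53 RPKM and Pcbd1, which recycles the cofactor of phenylalanine hydroxylase, 65.0 ± 11.3 and 61.6 ± 18.1 (SD, n = 3 each). Haao, the 1 tryptophan gene of 11 above 0 throughout, measured 4.60 ± 0.968 and 4.47 ± 1.33 RPKM, and for lysine and proline breakdown Dhtkd1 measured 20.1 ± 4.46 and 16.2 ± 2.42 and Prodh 30.1 ± 5.92 and 26.6 ± 3.57 (SD, n = 3 each). None of these differences passed limma.

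**Figure D5:**
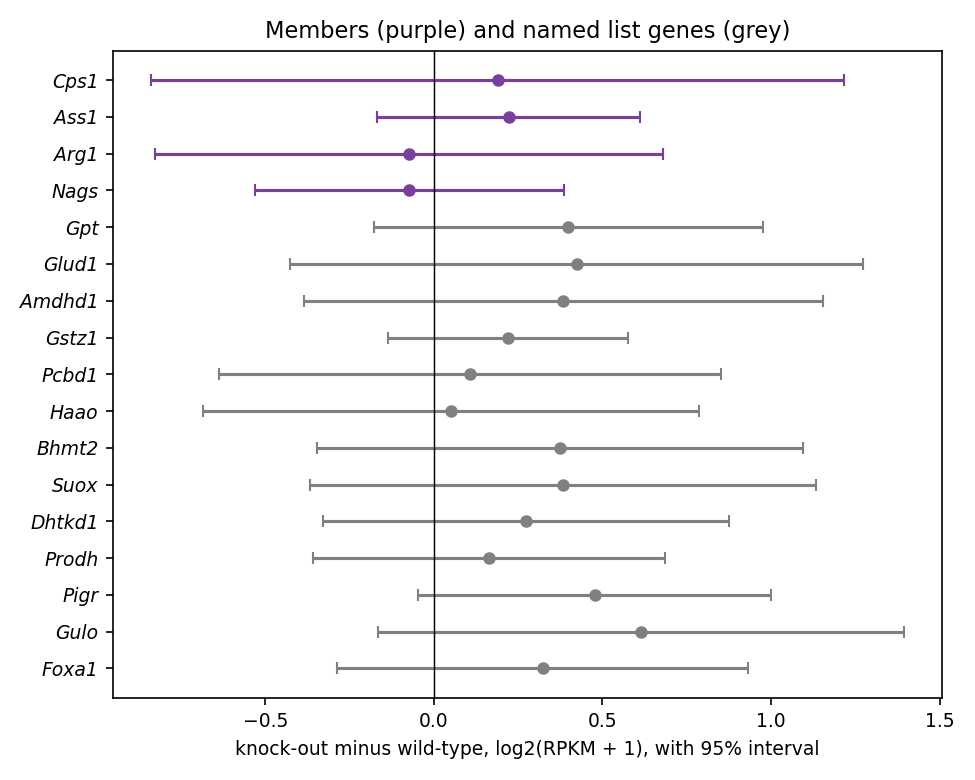
Knock-out minus wild-type difference of log2(RPKM + 1) with its 95% interval in limma (6 libraries), for the 4 members read in all libraries in purple and 13 genes of the other lists that were above 0 in all libraries in grey; Dmgdh, Hibadh and Pcca, at 0 in wild-type, are not drawn. All the intervals shown include 0, and that of Cps1 runs from -0.84 to 1.22. Psph and Aldh6a1 are not drawn either. In the fit drawn here their intervals run from -0.96 to 0.02 and from -0.10 to 0.97. In the fit of genes above 0 in all libraries they run from -0.896 to -0.045 and from 0.035 to 0.835.

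At the perivenous end, Glul had 5815, 2587 and 0 reads in the knock-outs and 0, 3442 and 3950 in the wild-types, with 363 RPKM in knock-out replicate 1 and 46.8 to 68.9 in the other 3 libraries above 0. It was at 0 in the same 2 libraries as Otc. Oat, ornithine aminotransferase, had 50 reads in wild-type replicate 3 and 0 elsewhere, and lies in a locus of the files that merges 37 genes and 131 transcripts. Of the 4 genes of perivenous ammonia scavenging, Glul and Oat included, 0 were above 0 in all libraries, 1 was tested and 0 were called. Of 12 perivenous genes 6 were above 0, 5 of them positive (median 0.53), and 6 without wild-type replicate 1 (median 0.46). Gulo, of vitamin C synthesis, measured 14.4 ± 2.08 and 9.36 ± 3.63 RPKM (SD, n = 3 each). The 1 periportal gene of other function above 0 was Pigr, the immunoglobulin receptor, at 77.3 ± 11.7 and 55.5 ± 11.4 RPKM (SD, n = 3 each). Of 16 regulators 5 were above 0. Foxa1, a pioneer factor, measured 3.73 ± 0.414 and 2.82 ± 0.717 RPKM (SD, n = 3 each). Gcgr, the glucagon receptor, was listed at 0 in all 6 libraries at a locus with 4 transcripts. None of the perivenous, periportal and regulator genes passed limma (0 of 8, 0 of 5 and 0 of 10 tested).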

How the data were processed

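Single-end libraries of polyadenylated hepatocyte RNA had been mapped by the authors; TopHat2 (version 2) and the build GRCm38 (mm10) are named in the submitters' processing notes. The deposited files list, for each of 118492 transcripts, an estimated read number, a length and an RPKM value made by the authors. The tool that assigned reads to transcripts, and its use of strand, are not given in the sources used here. Reads and RPKM were summed over the transcripts of a gene, and symbols were matched for 47993 of 48353 genes. Samples were grouped by their titles. Genes averaging 1 RPKM or more were tested on log2(RPKM + 1), knock-out against wild-type, with limma (version 3.58.1, R 4.3.3; lmFit, eBayes with trend, two-sided, 6 libraries, no covariate), and called at a Benjamini-Hochberg adjusted p below 0.05. For low genes the added 1 makes differences smaller than they are. Because the values are estimates, no model for read counts was the main test, and voom was an alternative. The code was tested on simulated data with normal noise, built only from genes above 0 in all libraries. That test does not cover genes with a library at 0.

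Members, lists, the alternatives and the naming rule (the 10 members, Glul, Oat and Alb, up to 2 called genes per direction or else the 2 smallest p of each list, and the 5 genes most like Cps1) were chosen with earlier results of these data known. Psph, Aldh6a1, Arg2, Cdo1, Dld, Gldc, Shmt2, Slc38a2, G6pc and the genes read in some libraries were named outside it. Some genes the rule names are not reported here. Alb measured 24648 ± 6417 RPKM in the knock-outs and 22361 ± 11446 in the wild-types (SD, n = 3 each). Of the other marker lists, endothelial genes were at 0 in all 6 libraries for 5 of 10 and stellate genes for 8 of 9. Cholangiocyte genes were so for 3 of 6, lymphocyte genes for 6 of 9 and red cell genes for 5 of 6. These zeros do not measure purity. Lymphocyte markers summed to 106 RPKM in wild-type replicate 1, against 0.06 to 0.14 elsewhere. Cholangiocyte sums ran from 9.09 (knock-out replicate 1) to 510 RPKM (knock-out replicate 2). Endothelial sums ran from 0 (knock-out replicate 2) to 198 RPKM (wild-type replicate 2). Stellate sums were at most 0.058 and red cell sums at most 4.97 RPKM. The symbols Ccbl1, Ccbl2 and Tf were matched as Kyat1, Kyat3 and Trf, and Hbb-b1 was not matched. The versions used were Python 3.11.15, pandas 2.3.3, numpy 2.4.6 and matplotlib 3.10.9.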

Additional observations from a re-analysis of the deposited data

How the results depend on the processing

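No member was called under the alternatives run, except Asl without wild-type replicate 2, so that leaving out 1 library at a time gave 0 to 1 members called. The genes called over the whole table numbered 87, and 182 to 207 with 1 library left out. They numbered 0 with the genes above 0 in all libraries (also with wild-type replicate 1 left out). They also numbered 0 with exact zeros taken as missing and 0 with the replicate block. All 87 had a library at 0, so the settings of genes above 0 held none of them. Otc, Asl and Gls2 were not tested there either. Taking zeros as missing left out genes with too few values in a group, among them Asl, Dmgdh, Hibadh and Pcca. In the other lists 3 genes were called, 2 to 5 with 1 library left out, and 0 under the same 4 settings. Of those settings only the replicate block tested these 3 genes. Same-numbered libraries correlated at -0.16 to -0.01 in their deviations from the group means, and 0 of 6 correlated best with their own number. With 3 libraries per group these deviations are tied to each other. The correlations therefore do not show whether same-numbered libraries shared a batch or day. Signs of small differences turned. With 1 library left out Cps1 ranged from -0.14 (without wild-type replicate 1) to 0.52, Otc from -1.05 to 1.75, Arg1 from -0.23 to 0.13 and Gls2 from -1.23 to 1.85. Asl ranged from -7.29 to -3.62, Ass1 from 0.12 to 0.36 and Nags from -0.21 to -0.0048. Over genes above 0 and with wild-type replicate 1 left out, Cps1 was -0.14 and Arg1 0.0295. With quantile normalization, which moved the median of all genes to 0.08, Arg1 was 0.15 and Nags 0.0032, and with voom Gls2 was -0.0676. The cause of these changes was not tested. The mean level of the 4 members read in all libraries differed by 0.07, and by -0.05 to 0.19 under the alternatives, within the spread between libraries. The members with the fewest reads were Arg1 (56 to 114) and Sds (0 to 24), and these numbers may count a read 2 times.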
